A study of Schmidtea mediterranea with 6 samples.

Results

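Eve, En and Dll-1 are homeobox genes of the planarian Schmidtea mediterranea that lie outside the HOX set. They are the planarian counterparts of even-skipped, engrailed and Distal-less. The members were chosen by name, as the transcripts SmedASXL_008181 (Eve), SmedASXL_019490 (En) and SmedASXL_012281 (Dll-1). These identifiers come from the study's table of gene names, and all 3 had a row among the 24578 transcripts tested. RNA was measured in uninjured adults of the asexual clonal strain CIW4, which were starved and then cut across the body into 6 anterior–posterior (A–P) zones. Zone 1 was the head tip as far back as the photoreceptors, zone 2 ran on to the back of the brain, and zone 3 to the front of the pharynx. Zone 4 held the pharynx, zone 5 ended midway between the pharynx and the tail tip, and zone 6 was the tail tip that remained. All zones came from wild-type animals, so that no zone carried a treatment or an allele that another lacked. Each zone had 1 library, pooled from several animals. The labels give a depth of more than 52000000 reads for each zone, and the reads behind a single transcript were not analysed here. In whole fragments like these, fewer cells of a type and less RNA per cell cannot be told apart.

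Homeobox genes encode transcription factors that bind DNA through the homeodomain, a short helical fold. In Drosophila, even-skipped is a pair-rule gene that lays down alternate segments of the embryo, engrailed marks the posterior part of each segment, and Distal-less directs the outgrowth of limbs and other appendages. Outside insects, genes of all 3 families are best known for roles in neurons and in patterning. Planarians have no segments and no limbs. In planarians a gene of the Distal-less family is known from the eye, where it acts in the formation of the pigmented optic cup. Whether that gene is the Dll-1 transcript read here was not checked.

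The proteins were compared first, because the names of the genes rest on them. Each predicted protein was aligned locally with the other 50 homeobox proteins of 50 residues or more in the study's table (BLOSUM62, gap penalties of 11 and 1). For all 3 genes the best match was the gene of the same family in another animal. The study gave the names by homology, so this match is not independent evidence for them. Only proteins with a printed sequence were compared, and the gap to the next protein depends on which families these cover. Eve, a protein of 229 residues, matched Eve of the flatworm Macrostomum lignano with 59.1% identity over 88 aligned columns and an alignment score of 265. The next protein, planarian Hox2/3a, scored 177. En, of 186 residues, matched En of the same flatworm with 67.5% identity over 114 columns, at a score of 395 against 180 for the next protein. Dll-1 matched Dll of the honeybee with 53 of 60 residues, an identity of 88.3%, and Dlx of amphioxus with 85.0%. This match lay at residues 282 to 341 of Dll-1, whose protein was cut short in the copy used here and has no length given. Its next match outside the family, the honeybee Zen, scored 172 against 277. Between members, the best local alignments had identities of 34.8% for Eve and En, 41.9% for Eve and Dll-1 and 50.9% for En and Dll-1, over stretches that differed in length. A pairwise score is not a phylogeny.

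Expression was read from the authors' deposited score, obtained as −log10 of the p-value, without adjustment, for 1 zone against the other 5 in the edgeR exact test. Its sign is plus for a transcript higher in that zone than elsewhere and minus for a lower one. A score beyond 1.30 in either direction is a p-value under 0.05, the limit by which the authors called a transcript specific to a zone. With 1 library per zone there was no replicate check, and a p-value speaks of these 6 libraries alone. Because both the size of a difference and its precision enter a score, a score near 0 can belong to a transcript with few reads as well as to one of even level. No fold change was computed from the scores. All 6 comparisons draw on the same libraries, and so the scores of a gene depend on one another.

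Of the 18 scores of the 3 genes, 1 was past the limit. Eve was higher in zone 1, the head tip. Among all transcripts 16.3% were called higher in zone 1, so that 1 of 3 members called there is not a result about the members as a group. No member was called higher in zones 2 to 6, where the share of all transcripts called was 4.71%, 1.73%, 2.40%, 0.325% and 0.915% in that order. No member was called lower in any zone, where the shares of all transcripts called lower, from zone 1 to zone 6, were 9.40%, 1.81%, 5.94%, 5.01%, 6.12% and 6.32%. No call in either direction was the common case, shared by 71.7% of all transcripts. The zones recomputed from the scores equalled the authors' deposited codes for all 3 genes, which were zone 1 for Eve and no zone for En and Dll-1. The codes rest on the same scores and limit, so this checks the reading of the scores and not the calls.

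**Figure D1:**
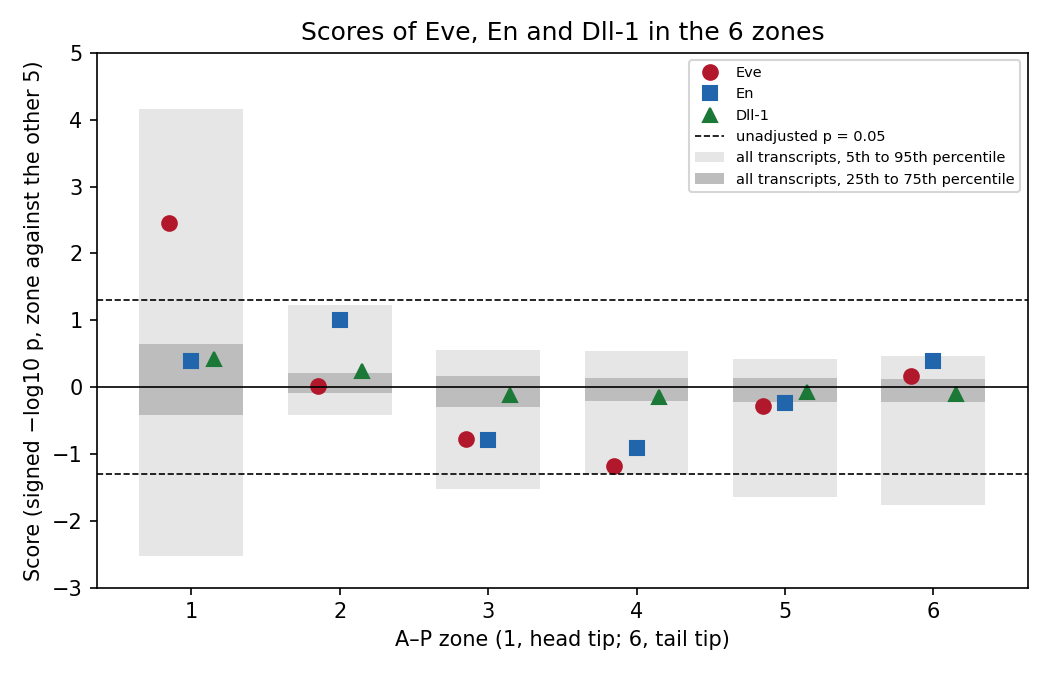
Score of Eve, En and Dll-1 (vertical axis, signed −log10 of the unadjusted p-value) in each of the 6 A–P zones (horizontal axis), with 1 point per gene and zone, 1 library per zone and no error bars. Grey bars span the middle of all 24578 transcripts and dashed lines mark the limit of ±1.30. Eve in zone 1, at 2.46, is the 1 point beyond the dashed lines, and all 3 genes lie below 0 in zones 3, 4 and 5.

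The scores of Eve, from zone 1 to zone 6, were 2.46, 0.0241, −0.772, −1.18, −0.289 and 0.170. The head tip had the highest score and the pharynx zone the lowest. The p-value in zone 1 was 0.00346 in the edgeR exact test as deposited. After Benjamini-Hochberg adjustment of the edgeR p-values over all transcripts of the zone 1 comparison it was 0.0241, and 11.3% of all transcripts were called higher in zone 1 under that rule. Adjusted by the same method over all 6 comparisons together it was 0.0601, which is no longer past the limit. The next largest score in size, that of zone 4, had an unadjusted edgeR p-value of 0.0661.

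The zone 1 score of Eve was an ordinary one among transcripts of the head tip. It ranked 2270 from the highest of 24578, and 43.5% of the 4017 transcripts called higher in zone 1 had a lower score there. The median score of those transcripts was 2.74. At the other end of the body, the score of Eve in zone 6 was above 0, as it was for 347 of the 4017 (8.64%). The lowest score was in zone 4 for Eve and for 26.4% of the 4017. No test was made of these shares, and the p-value of Eve in zone 6 was 0.676 in the edgeR exact test, so that no difference between the tail tip and the other zones was shown.

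The scores of En, from zone 1 to zone 6, were 0.386, 0.999, −0.791, −0.912, −0.233 and 0.386. The highest score fell in zone 2, which ends at the back of the brain, and the lowest in the pharynx zone. None of the 6 was past the limit. The smallest unadjusted edgeR p-values were 0.100 in zone 2, 0.122 in zone 4 and 0.162 in zone 3. After Benjamini-Hochberg adjustment of the edgeR p-values within each comparison, the lowest value of En was 0.704, in zone 1. Zones 1 and 6 had the same score to 9 decimals.

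Set against other transcripts of the same zone, En stood highest in zones 2 and 6. Its zone 2 score ranked 1499 from the highest of 24578, above 93.9% of the transcripts, and its zone 6 score ranked 1641, above 93.3%. In zone 1, the head tip, it lay at the 68.0th percentile. In zones 3 and 4 it lay at the 9.78th and 7.09th percentile. A rank of this kind says how few transcripts scored higher in a zone, and positive scores in the tail tip were mostly small, with 0.915% of all transcripts called higher there. The unadjusted edgeR p-value of En in zone 6 was 0.411, so that the rank is not a call.

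The scores of Dll-1, in the same order of zones, were 0.419, 0.235, −0.124, −0.145, −0.0675 and −0.105. The scores were positive in the zones of the head and negative in all zones behind them. The eye, the site known for a planarian gene of this family, lies by the rear edge of zone 1, which ran as far back as the photoreceptors. Dll-1 was not matched to that gene, and a link of its scores to the eye was not tested. Zone 1 had the highest score of Dll-1, with an unadjusted edgeR p-value of 0.381 and an adjusted one of 0.680 (Benjamini-Hochberg within the comparison). A difference between the head tip and the rest of the body was therefore not detectable for Dll-1 in these libraries, which does not show that its level was even. Its zone 1 score ranked 7612 from the highest of all transcripts, at the 69.0th percentile, and its zone 2 score lay at the 76.1st.

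The members differed in how far their scores spread. The distance from the highest to the lowest zone was 3.64 score units for Eve, 1.91 for En and 0.564 for Dll-1. A smaller spread was found in 85.5% of all transcripts for Eve, in 71.7% for En and in 24.4% for Dll-1. Dll-1 thus had flatter scores than most transcripts, though 24.4% were flatter still. The abundance of the 3 transcripts, on which a score also depends, was not measured in the values used here, and its part in this order was not tested.

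**Figure D2:**
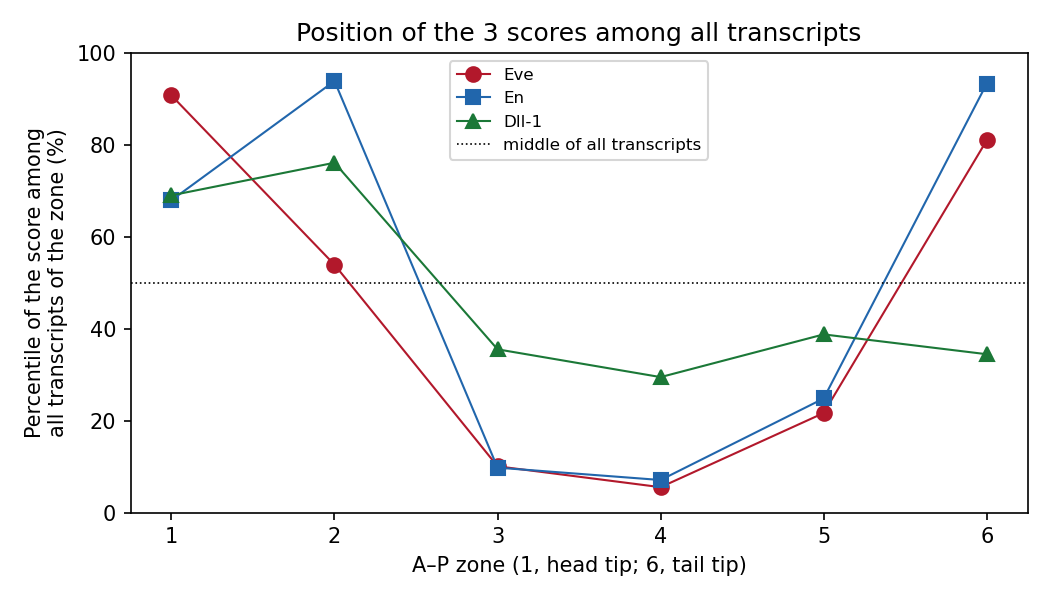
Percentile of the score of Eve, En and Dll-1 among all 24578 transcripts of the same zone (vertical axis, %) across the 6 A–P zones (horizontal axis), with 1 library per zone and no error bars. Eve and En drop to 5.53% and 7.09% in zone 4 and stand at 81.0% and 93.3% in zone 6, while Dll-1 stays at 34.5% there.

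Some features were shared by the 3 genes. All had scores above 0 in zones 1 and 2 and below 0 in zones 3, 4 and 5, a pattern found in 18.6% of all transcripts. All had their lowest score in zone 4, which was so for 13.5% of all transcripts. Of the 18 scores behind these patterns, 17 were not past the limit. Eve and En had the same sign in all 6 zones, with a positive score also in zone 6, and 774 transcripts (3.15%) had these signs. Dll-1 was negative in zone 6, and 3665 transcripts (14.9%) had its signs.

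Pearson's r over the 6 zones was 0.863 between Eve and Dll-1, 0.692 between En and Dll-1 and 0.588 between Eve and En. Spearman's rho was 0.829, 0.812 and 0.812 in the same order. These are descriptions over 6 scores that share their libraries. None of the 3 followed the axis from head to tail step by step: against the number of the zone, Spearman's rho was −0.543 for Dll-1, −0.290 for En and −0.257 for Eve.

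The transcripts most like each gene were taken as the 3 at the smallest Euclidean distance over the 6 scores. For Eve these were SmedASXL_001641, SmedASXL_014785 and SmedASXL_054807, at distances of 0.280 to 0.343, and all 3 carried the authors' deposited code for zone 1. Their zone 1 scores were 2.24, 2.21 and 2.49, beside 2.46 for Eve. For En the nearest were SmedASXL_067235, SmedASXL_070493 and SmedASXL_068339, at 0.541 to 0.550. The first of these had a score of 0.720 in zone 2, beside 0.999 for En, and 0.144 in zone 6, beside 0.386. For Dll-1 the nearest were SmedASXL_079878, SmedASXL_075056 and SmedASXL_016261, at 0.0807 to 0.0844. None of the 6 nearest to En and Dll-1 carried a zone code. Of the 3 members, the shape of En was the least common by correlation, with 33 other transcripts at an r over 0.95, against 1297 for Eve and 1027 for Dll-1. None of the 6 scores of En was past the limit, so that count describes the order of uncalled scores. The members were not close neighbours of one another, since Dll-1 ranked 2004 among the transcripts nearest to En, and En ranked 4826 among those nearest to Eve.

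The HOX genes, the homeobox genes that pattern the A–P axis of most animals, were the remaining planarian genes with an identifier in the study's table. Of their 14 identifiers 12 had a row, covering 11 genes. The highest score was in zone 6 for 9 of the 12 HOX transcripts, against 12.2% of all transcripts, and 8 of the 12 were called higher there, against 0.915% of all transcripts. Post-2a and Post-2b are among the 8, though the study saw both by in situ hybridization in a radial pattern at the body edge. Both transcripts of the gene Lox5a are among the 9 and among the 8, so these are counts of transcripts and not of genes. The 0 of 3 members called higher in zone 6 are thus what most transcripts show. At the same unadjusted limit Lox4 alone of the 12 was called higher in zone 1, as Eve was. The 3 members had their highest score in zone 1 or 2, as did 3 of the 12 HOX transcripts and 47.7% of all transcripts. No test was made of these counts.

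**Figure D3:**
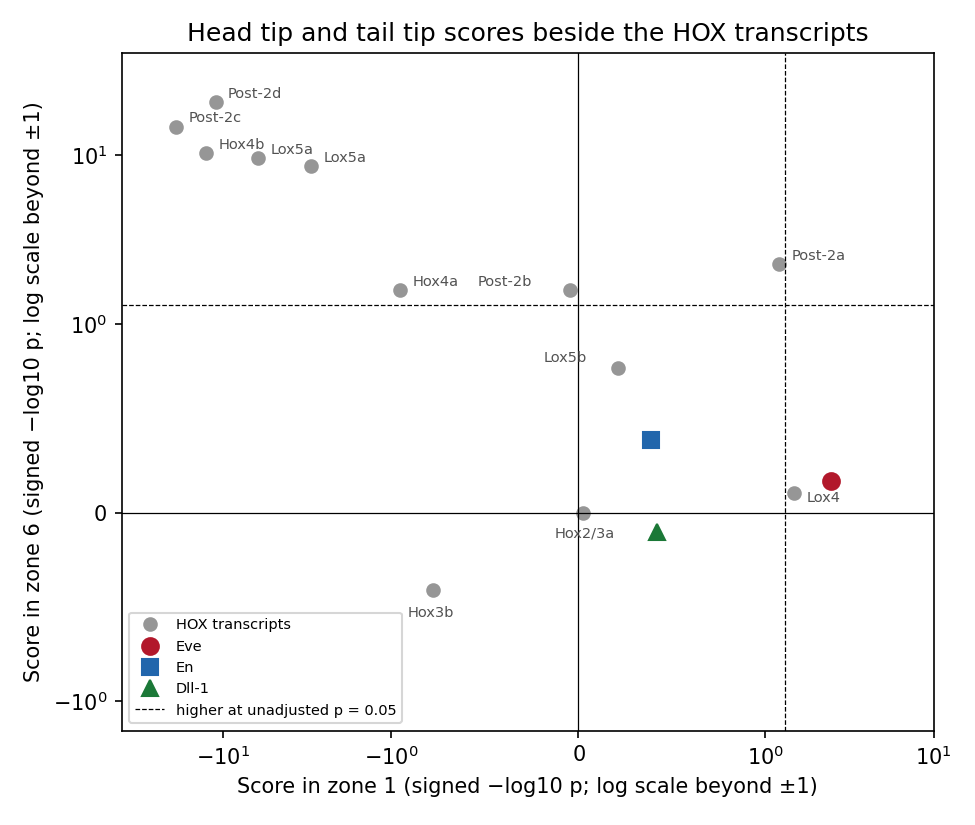
Score in zone 1 (horizontal axis) against score in zone 6 (vertical axis), both signed −log10 of the unadjusted p-value on a scale that is logarithmic beyond ±1, for Eve, En, Dll-1 and 12 HOX transcripts, with 1 point per transcript. Dashed lines mark the limit of 1.30 for a call. The 3 members lie to the right of 0 and below the line for zone 6, Eve beside Lox4, while 8 HOX transcripts lie above that line.

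The nearest HOX transcript by Euclidean distance differed for each member. For Eve it was Lox4 (SmedASXL_005553), a central HOX gene, at a distance of 1.76 and with r = 0.806 over the 6 zones. Lox4 had a score of 1.48 in zone 1 and 0.102 in zone 6, close to the pattern of Eve, but its lowest score was −1.98 in zone 3, where Eve had −0.772. For En it was Lox5b (SmedASXL_002885), another central HOX gene, at 1.31 with r = 0.624. Lox5b had its highest score, 0.768, in zone 6, where En had 0.386. For Dll-1 it was the anterior HOX gene Hox2/3a (SmedASXL_008435), at 0.435 with r = 0.563. Both had small scores throughout, and that of Hox2/3a was at most 0.300 in size. Many other transcripts lay nearer: Lox4 ranked 2372 by distance from Eve, Lox5b 1464 from En and Hox2/3a 1899 from Dll-1. The HOX match depended on the measure. By Pearson's r the HOX transcript most like Eve was again Lox4, but Lox4 was also the one most like Dll-1 (r = 0.802). For En the highest r was that of Hox2/3a (0.775). The posterior genes Post-2c and Post-2d, paralogs of the Abdominal-B class, were the farthest HOX transcripts from all 3 members, at distances of 26.4 to 29.9. Such a distance grows with the size of the scores, and Post-2d had a score of 20.5 in zone 6. Pearson's r with Eve, En and Dll-1 was −0.501, −0.252 and −0.802 for Post-2c. For Post-2d it was −0.215, 0.00883 and −0.567, which was not the lowest r of the HOX transcripts for any member.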

How the data were processed

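The 3 transcripts and the lists were chosen with earlier results of these data known. Per the labels and the study's methods, single-end reads were aligned with Bowtie2 2.2.4 to the asexual transcriptome, transcripts under 0.5 CPM in each zone were removed, counts were TMM-normalized, and each zone was tested against the remaining 5 with the exact test of edgeR. Its version is not given in the sources used here, nor is its dispersion. Collections of animals were pooled into 1 library per zone. The labels give 5 animals, the series text 10, and the study's methods 5 animals in each of 3 collections, mixed in equal amounts. The score deposited by the authors is −log10 of the unadjusted p-value with the sign of the difference. The zone code deposited beside it lists the zones called higher. Columns matched to no sample numbered 0. Counts were not analysed here.

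The p-value was recovered as 10 to the minus absolute score. The limit was 0.05 unadjusted, with Benjamini-Hochberg adjustment over all 24578 transcripts beside it. Named transcripts were the 3 members, the 3 nearest to each by Euclidean distance and the HOX transcripts nearest to each or farthest from all. The last 2, Post-2c and Post-2d, and the comparison within transcripts called in zone 1 were chosen after their values were seen. The steps were tested on simulated data. Proteins came from the study's table and were aligned in Biopython 1.88. Python 3.11.15, numpy 2.4.6, pandas 2.3.3, scipy 1.17.1 and matplotlib 3.10.9 were used.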

Additional observations from a re-analysis of the deposited data

How the results depend on the processing

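The call of Eve in zone 1 held at an unadjusted p-value under 0.01, after Benjamini-Hochberg adjustment within the comparison (edgeR adjusted p = 0.0241) and after Bonferroni adjustment over the 6 zones (0.0208). Benjamini-Hochberg adjustment over all 6 comparisons gave 0.0601 and left 0 calls for the 3 genes. No score of a member was called lower at the unadjusted limit or under any of the 4 alternatives.

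The share of all transcripts called depended on the limit. With Benjamini-Hochberg adjustment within the comparison, the shares called higher in zones 2, 3, 5 and 6 were 2.68%, 0.745%, 0.0773% and 0.321%, and the shares called lower in zones 1, 3, 4, 5 and 6 were 6.06%, 2.66%, 2.57%, 2.93% and 3.53%. At p under 0.01, the shares called higher in zones 3, 5 and 6 were 1.08%, 0.146% and 0.509%, and those called lower in zones 1 and 3 were 6.21% and 3.79%. Both are stricter limits by construction.

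The nearest transcripts changed with the measure. By Pearson's r, 0 of the 3 nearest were shared for Eve, En or Dll-1. By distance over within-zone percentiles, 1 of 3 was shared for Eve, 1 of 3 for En and 2 of 3 for Dll-1. Without zone 1, 2 of 3 were shared for Eve, 1 of 3 for En and 1 of 3 for Dll-1. Ranked by within-zone percentile, the highest zone of Dll-1 was zone 2 and not zone 1, and the highest and lowest zones of Eve and En and the lowest of Dll-1 did not change.

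No paired analysis was possible because each zone had 1 library. The scores hold no counts, so no counting interval and no other filter on low values was computed.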

Other observations

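The equal scores of En in zones 1 and 6 are of a kind seen elsewhere in the table: 3890 of 24578 transcripts (15.8%) had the same score to 9 decimals in at least a pair of zones. Of the 6 scores of En, those of zones 2 and 5 were each also held by 1 other transcript in the same zone, and so was the zone 2 score of Eve. The 6 scores of Dll-1 were each held by no other transcript of the zone.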
